A study of Mus musculus with 4 samples.

Results

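The membrane adenylyl cyclases are the 9 genes Adcy1 to Adcy9, taken by symbol from the deposited count tables, and all 9 were found among the 31735 gene rows that the 4 libraries share. The tissue was rostral pons, taken from adult mice of the line Cbln2-TRAP NIDA172, in which a fusion of EGFP and ribosomal protein L10a (Cbln2-EGFP/Rpl10a) tags ribosomes. Tagged polysomes were pulled down with antibodies to EGFP, so a library holds ribosome-bound RNA. All 4 libraries form 1 group of untreated control mice, and no unpurified RNA was used here, so each level is one within the pulldown, with no comparison to whole tissue. Which cells carry the tag, and whether a replicate is 1 animal or a pool, is not stated in the labels, so the spread between replicates may be technical. In such bulk samples, fewer cells of a type and less RNA per cell cannot be told apart.

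Adenylyl cyclases make cyclic AMP from ATP. The membrane forms are built from paired blocks of membrane-spanning helices and a pair of cytoplasmic catalytic regions that form the active site together, and they are switched on by the G protein alpha subunits encoded by Gnas and Gnal. They differ in what else moves them. Adcy1 and Adcy8, and in vitro Adcy3, respond to calcium and calmodulin. Adcy2, Adcy4 and Adcy7 are boosted by G protein beta-gamma subunits, Adcy5 and Adcy6 are inhibited by calcium and by the inhibitory G protein alpha subunits, and Adcy9 responds poorly to the plant compound forskolin. In neurons, the cyclic AMP they make acts through protein kinase A, the Epac exchange factors and cyclic nucleotide-gated channels on excitability, transmitter release and gene expression.

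The coding sequences show how far the members differ, which bears on whether reads can be assigned to each gene. The stretch of 60 coding bases with the most positions shared by all 9 genes lies in the second catalytic region. It was found by aligning the 9 translated coding sequences of GENCODE M21 (GRCm38). It is shown here because the genes differ from each other even in this stretch. It was picked for identity in all 9 genes, and 2 members may be more alike elsewhere. Capitals mark the 36 bases that are identical in all 9 genes, and 13 of the 20 codons encode the same residue in all 9.
Adcy1: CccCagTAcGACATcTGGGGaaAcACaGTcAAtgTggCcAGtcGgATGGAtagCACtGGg
Adcy2: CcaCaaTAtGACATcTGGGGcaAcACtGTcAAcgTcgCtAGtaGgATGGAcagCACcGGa
Adcy3: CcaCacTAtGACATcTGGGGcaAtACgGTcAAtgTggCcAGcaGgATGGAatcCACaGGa
Adcy4: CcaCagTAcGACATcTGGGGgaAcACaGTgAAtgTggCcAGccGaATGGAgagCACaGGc
Adcy5: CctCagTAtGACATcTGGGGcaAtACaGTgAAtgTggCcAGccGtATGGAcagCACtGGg
Adcy6: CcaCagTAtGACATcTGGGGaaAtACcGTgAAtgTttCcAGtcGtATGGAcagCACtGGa
Adcy7: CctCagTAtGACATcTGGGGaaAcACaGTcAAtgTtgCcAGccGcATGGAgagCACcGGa
Adcy8: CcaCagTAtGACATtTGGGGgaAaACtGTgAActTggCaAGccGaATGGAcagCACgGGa
Adcy9: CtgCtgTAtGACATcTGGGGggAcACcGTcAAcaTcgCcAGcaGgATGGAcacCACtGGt
In this stretch 2 members differed by at least 7 and at most 16 bases. Over the whole protein, 27.5% to 68.2% of aligned residues were identical between 2 members, with a median of 37.5% over 36 pairs. Adcy5 and Adcy6 were the closest pair, and Adcy2 and Adcy9 the most distant. The longest run of coding bases shared by 2 members was 33 bases, between Adcy4 and Adcy8. The read length is not given in the sources used here.

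The libraries held 12731825 to 21140265 gene counts. Levels are in CPM, the count of a gene per 1000000 gene counts of its library, and 1 count was worth 0.0473 to 0.0785 CPM. The row Rn45s, named for the ribosomal RNA precursor, took 1.61% to 24.2% of the gene counts, most in replicate 3, and lowers the CPM of every other gene there. All 10 general neuronal markers reached 1 CPM in all 4 libraries. Markers of other cell types were present. Their summed level was 183 to 1475 CPM over 8 genes of cerebellar granule cells and 483 to 2097.5 CPM over 9 astrocyte genes. It was 433 to 2478 CPM over 9 oligodendrocyte genes and 3.99 to 44.6 CPM over 10 microglia genes.

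All 9 cyclases were detected, each with at least 1 CPM in all 4 libraries, where 33.5% of all shared gene rows reached that level. Their counts ranged from 22 for Adcy4 in replicate 4 to 6667 for Adcy1 in replicate 2. By the mean of the 4 libraries, Adcy1 and Adcy2 stood highest, Adcy9, Adcy5 and Adcy8 in the middle, and Adcy3, Adcy6, Adcy7 and Adcy4 low, whether or not CPM were divided by gene length. Which of Adcy1 and Adcy2 led depended on that division. The levels below are in CPM where libraries are compared for 1 gene, and in CPM per kilobase of annotated exon (CPM per kb) where genes are compared with each other.

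**Figure D1:**
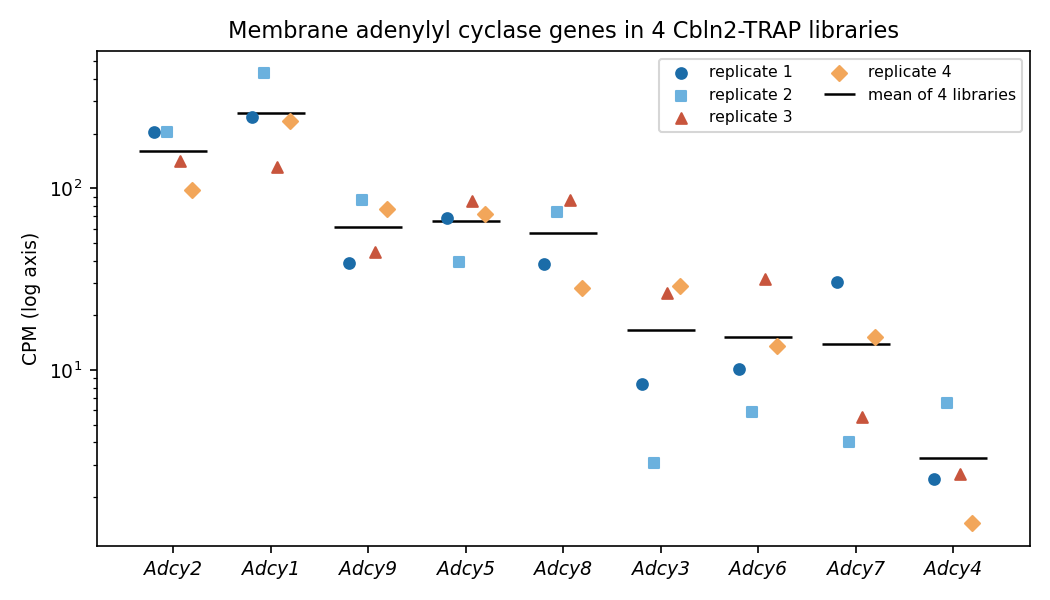
CPM (log axis) of the 9 cyclase genes, with 1 point per library and a bar at the mean of the 4 libraries. The genes are in the order of their level per kb of exon. Adcy1 and Adcy2 lie between 97.9 and 429 CPM in every library, and Adcy4 stays between 1.44 and 6.56 CPM.

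Among the calcium-stimulated cyclases, Adcy1 (chromosome 11, 7063489 to 7178506, plus strand, GRCm38) was the most abundant. It encodes a calmodulin-activated enzyme known mainly from neurons, where it takes part in synaptic plasticity. It was at 245, 429, 131 and 234 CPM in replicates 1 to 4, with a mean of 260 ± 124 CPM (SD, n = 4) and 20.7 ± 9.89 CPM per kb. Replicate 2 was highest and replicate 3 lowest, 3.28-fold apart. Per kb, Adcy1 lay above 81.0% of the 10131 genes with an annotated length that reached 1 CPM in all 4 libraries. In CPM, the sum of cerebellar granule cell markers followed the same order of libraries. Over 8 genes it was 627, 1475, 183 and 314 CPM in replicates 1 to 4. With Rn45s left out of the library totals, replicates 3 and 4 were no longer both below replicates 1 and 2 for Adcy1. Not every granule cell marker kept the order, as Neurod1 was lowest in replicate 4 (8.23 CPM) and Zic2 highest in replicate 1 (35.9 CPM). Of these markers 7 reached 1 CPM in all 4 libraries, and Barhl1 had a count of 0 in replicate 2. Their part in the Adcy1 level was not tested.

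Adcy8 (chromosome 15, 64697084 to 64922296, minus strand), the second calmodulin-activated neuronal enzyme, was at 38.1, 73.6, 86.4 and 28.2 CPM (mean 56.6 ± 27.8 CPM, SD, n = 4). Replicates 2 and 3 were high and replicates 1 and 4 low, so its order over libraries was not that of Adcy1. Adcy3 (chromosome 12, 4133103 to 4213525, plus strand), the cyclase of olfactory signalling and of neuronal primary cilia, was at 8.37, 3.09, 26.5 and 28.9 CPM (mean 16.7 ± 12.9 CPM). Replicates 3 and 4 were both above replicates 1 and 2, and the extremes were 9.37-fold apart, the widest range among the 9 members. Of the annotated exon bases of Adcy3, 22.1% overlap Cenpo on the opposite strand, and reads there could not be assigned with the strand setting unknown. Cenpo was at 6.72, 2.70, 8.33 and 1.76 CPM in replicates 1 to 4.

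Among the cyclases stimulated by beta-gamma subunits, Adcy2 (chromosome 13, 68620043 to 68999541, minus strand) was far above its relatives. It was at 203, 203, 142 and 97.9 CPM in replicates 1 to 4, with a mean of 161 ± 51.2 CPM (SD, n = 4) and 38.3 ± 12.2 CPM per kb. Replicates 1 and 2 were level with each other and above replicates 3 and 4. Per kb of exon Adcy2 ranked first of the 9 members in every library and lay above 91.0% of genes detected throughout. Its antisense neighbour Gm35161 overlaps 4.49% of its exon bases.

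Adcy7 (chromosome 8, 88272403 to 88329962, plus strand), known from blood and immune cells as well as brain, was at 30.6, 4.05, 5.50 and 15.3 CPM (mean 13.9 ± 12.2 CPM). Replicates 1 and 4 were high and replicates 2 and 3 low, and the mean was 8.30 CPM without replicate 1. The 10 microglia markers summed to 26.3, 3.99, 7.78 and 44.6 CPM in the same libraries, also highest in replicates 1 and 4, while 5 of them (C1qa, Tmem119, Aif1, Trem2 and Itgam) had a count of 0 in at least 1 library and 1 of 10 reached 1 CPM in all 4. Csf1r made up much of that sum in replicates 1 and 4 (12.8 and 26.2 CPM), while Cx3cr1 was highest in replicate 3 (4.40 CPM). The sum of 6 markers of oligodendrocyte precursors was also highest in replicates 1 and 4, at 120, 92.8, 26.7 and 155 CPM. Vcan made up most of that sum in replicate 1 (93.0 CPM), and Vcan, Cspg4 and Gpr17 were highest in replicates 1 and 4. Pdgfra, Olig1 and Olig2 went the other way between replicates 1 and 2. They were at 6.43, 11.9 and 1.14 CPM in replicate 1 and 9.06, 20.5 and 11.6 CPM in replicate 2. The part of these markers in the Adcy7 level was not tested. Adcy4 (chromosome 14, 55769057 to 55784095, minus strand) was the lowest member on average, at 2.51, 6.56, 2.67 and 1.44 CPM (mean 3.29 ± 2.24 CPM). Replicate 2 was highest and replicate 4 lowest. The sum of 8 endothelial markers had the same extremes (144, 225, 101 and 40.5 CPM), as did that of 8 Purkinje cell markers (1582, 2628, 778 and 750 CPM). Unlike both sums, Adcy4 was higher in replicate 3 than in replicate 1. Of the endothelial markers, Pecam1, Slco1a4, Cdh5 and Kdr were highest in replicate 2, Flt1 and Tek in replicate 1, and Cldn5 and Ly6c1 in replicate 3. Cldn5 had a count of 0 in replicate 4, and 5 of the 8 endothelial markers reached 1 CPM in all 4 libraries. Whether these markers bear on Adcy4 was not tested.

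The calcium-inhibited cyclases were unequal. Adcy5 (chromosome 16, 35154877 to 35305738, plus strand), the main cyclase of the striatum, was at 68.5, 39.5, 85.0 and 72.6 CPM (mean 66.4 ± 19.2 CPM, SD, n = 4), lowest in replicate 2. Adcy6 (chromosome 15, 98589973 to 98610076, minus strand), its closest relative, was at 10.1, 5.85, 31.5 and 13.6 CPM (mean 15.3 ± 11.3 CPM, and 9.86 CPM without replicate 3). Both genes were lowest in replicate 2 and highest in replicate 3. Within each library Adcy5 exceeded Adcy6 per kb, with log2 ratios of 2.34, 2.14, 1.26 and 2.08, a mean of 1.95 ± 0.48, or 3.87-fold. Antisense Gm29331 overlaps 8.92% of the Adcy6 exon bases. Adcy9 (chromosome 16, 4287529 to 4420498, minus strand), the forskolin-insensitive member, was at 39.0, 86.1, 44.4 and 76.5 CPM (mean 61.5 ± 23.3 CPM), high in replicates 2 and 4 and low in replicates 1 and 3.

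Adcy5, Adcy2 and Adcy9 varied least over the libraries, with SDs of log2(CPM + 0.5) of 0.48, 0.50 and 0.56. The median SD over the 10632 genes that reached 1 CPM in all 4 libraries was 0.67. Adcy3 and Adcy7 varied most, with SDs of 1.44 and 1.28, and 94.8% and 90.4% of those genes had a smaller SD.

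To order the members, the log2 ratio of CPM per kb (plus 0.5) was taken within each library for all 36 pairs of genes. A pair was called separated where all 4 libraries went one way and the mean was over 2 SD. The exact two-sided sign-flip permutation test has 16 sign patterns with 4 libraries and cannot go below 2 of the 16, an adjusted p of 0.188 after Benjamini-Hochberg adjustment over the 36 pairs. No pair can thus pass 0.05 in this test. By the rule of direction and size 16 of 36 pairs were separated, and 24 went one way in all 4 libraries. Adcy2 was separated from 7 of the 8 other members. It exceeded Adcy9 3.18-fold (log2 1.67 ± 0.82, SD), Adcy5 3.95-fold (1.98 ± 0.84), Adcy8 5.46-fold (2.45 ± 0.66) and Adcy4 32.6-fold (5.03 ± 0.37), each with the smallest p that the test allows.

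Neighbours in the order per kb of exon were not separated. None of the 8 neighbouring pairs passed the rule, and 2 of them, Adcy2 over Adcy1 (log2 0.93 ± 0.63, SD) and Adcy1 over Adcy9 (0.74 ± 0.52), went one way in 4 of 4 libraries. Adcy9 and Adcy5 differed by 0.31 ± 0.91, Adcy5 and Adcy8 by 0.47 ± 0.92, Adcy8 and Adcy3 by 1.40 ± 1.49, Adcy3 and Adcy6 by 0.09 ± 0.65, Adcy6 and Adcy7 by 0.20 ± 1.37, and Adcy7 and Adcy4 by 0.89 ± 1.40. Adcy1 was not separated from Adcy5 (1.05 ± 1.12) or Adcy8 (1.52 ± 1.04) either, and in replicate 3 it lay below both per kb (log2 -0.17 and -0.02) and ranked 4 of 9. Of the 20 pairs that set 1 of the 5 upper genes (Adcy2, Adcy1, Adcy9, Adcy5, Adcy8) against 1 of the 4 lower ones, 19 went one way in all 4 libraries and 13 were separated. The exception was Adcy8 over Adcy3, where replicate 4 went the other way (log2 -0.37). This division was drawn after the values were seen.

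**Figure D2:**
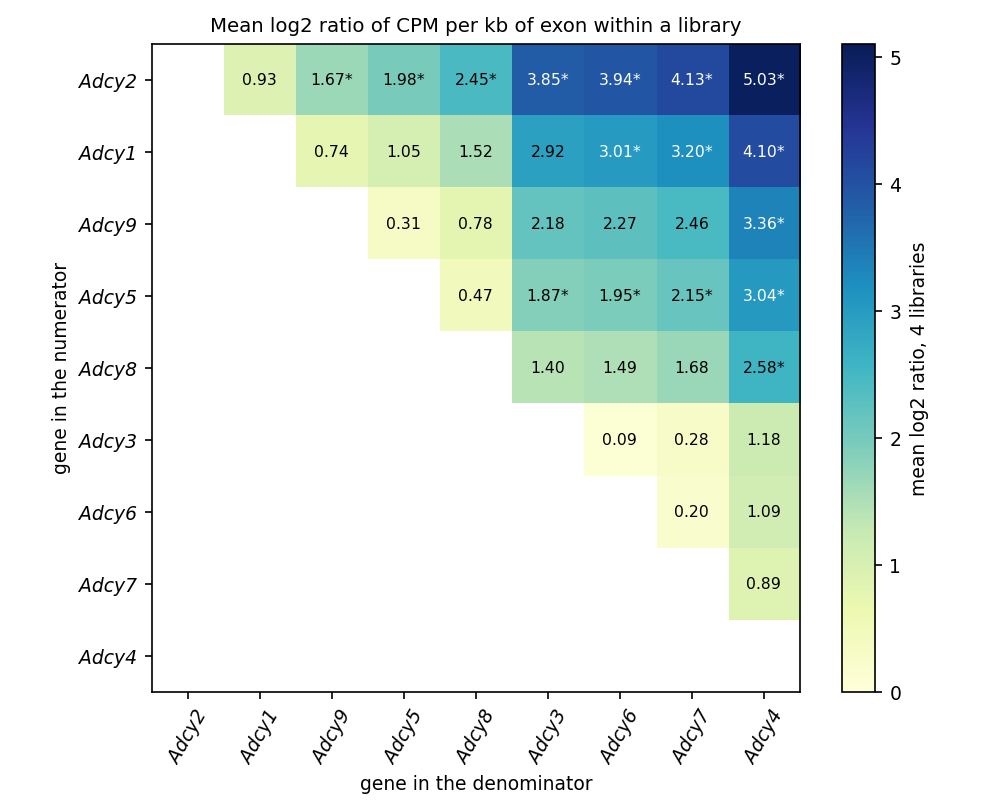
Mean log2 ratio of CPM per kb of exon for each pair of members over 4 libraries, row gene over column gene, with darker colour for larger ratios. An asterisk marks the 16 pairs that went one way in 4 of 4 libraries with a mean over 2 SD. None lies on the first diagonal, which holds the neighbours.

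The lead of Adcy2 over Adcy1 rested on the length used. Adcy1 has 12522 bases of annotated exon and 3354 of coding sequence, while Adcy2 has 4211 and 3285. Per kb of coding sequence Adcy1 was at 77.4 ± 36.9 CPM per coding kb and Adcy2 at 49.2 ± 15.6 (SD, n = 4), and the mean log2 ratio of Adcy2 to Adcy1 was -0.59 ± 0.65, above 0 in 1 of 4 libraries (replicate 3). Without any division by length it was -0.62 ± 0.65, again above 0 in 1 library. The lead of Adcy2 over Adcy8 was smaller in both settings, with mean log2 ratios of 1.75 by coding length and 1.59 without length against 2.45 per kb of exon, and the pair was separated in all 3. Its lead over Adcy5 was 2.73-fold by coding length and 2.41-fold without length, above 0 in all 4 libraries but no longer separated. Without length, Adcy2 was also not separated from Adcy9 (2.65-fold) or Adcy3 (12.3-fold). Adcy1 was separated from Adcy9 in both settings, with mean log2 ratios of 2.27 by coding length and 2.02 without length. The division by exon length assumes that reads come from the whole annotated transcript. Which 3′ ends were in use was not measured. The division into upper and lower members did not depend on it, with 19 of 20 pairs going one way in every library by coding length, and 19 of 20 without length.

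**Figure D3:**
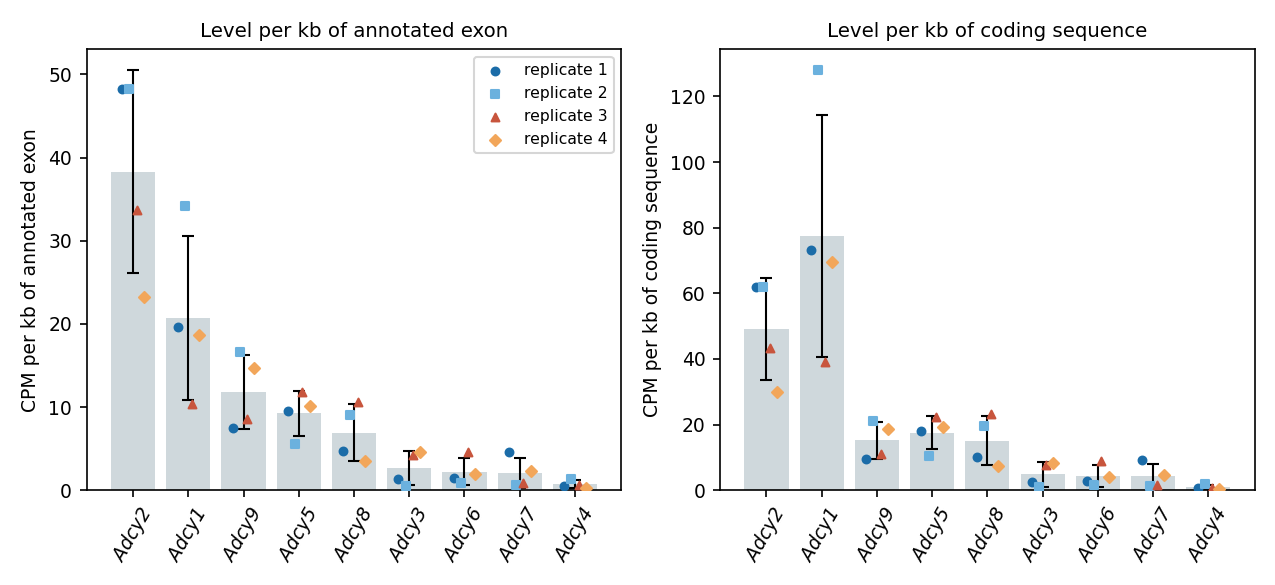
Level of each cyclase gene per kb of annotated exon (left) and per kb of coding sequence (right). Bars are means of 4 libraries, error bars 1 SD, points the libraries. Adcy2 leads on the left (38.3 against 20.7 for Adcy1) and Adcy1 on the right (77.4 against 49.2).

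Summed over the 9 genes, the cyclase level was 97.4, 117, 85.4 and 79.4 CPM per kb in replicates 1 to 4 (94.8 ± 16.6, SD, n = 4). The beta-gamma-stimulated members made up 54.7%, 43.0%, 41.1% and 32.5% of that sum, nearly all of it Adcy2, with 49.5%, 41.3%, 39.5% and 29.3%. The calcium-stimulated members made up 26.3%, 37.4%, 29.6% and 33.7%, the calcium-inhibited ones 11.3%, 5.44%, 19.3% and 15.3%, and Adcy9 between 7.71% (replicate 1) and 18.5% (replicate 4). Replicate 3 held the smallest Adcy1 part (12.2%) and the largest Adcy8 part (12.4%). By coding length the calcium-stimulated members led with a mean of 50.6% (44.2% to 60.1%), and the beta-gamma-stimulated ones had 28.8% (21.5% to 38.2%). The order of the class means thus turned with the length used. In replicate 4 the calcium-stimulated members already led per kb of exon, with 33.7% against 32.5%.

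**Figure D4:**
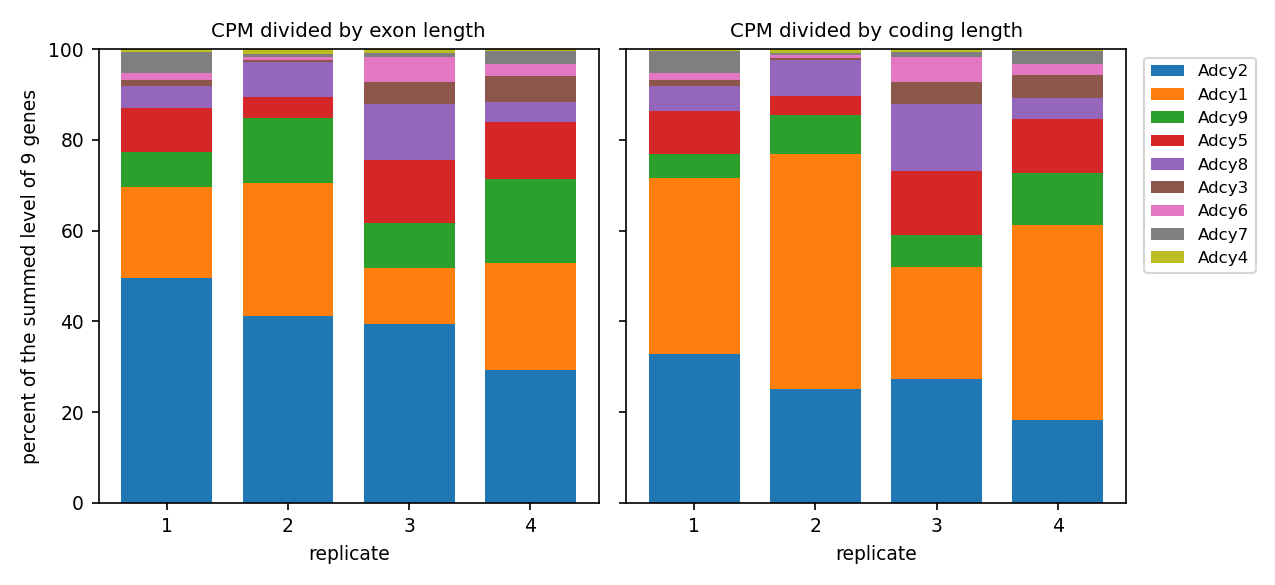
Percent of the summed level of the 9 genes that each member contributed, by replicate, with CPM divided by annotated exon length (left) or coding length (right). Adcy2 and Adcy1 together fill most of every bar, and Adcy2 holds between 29.3% (replicate 4) and 49.5% (replicate 1) on the left.

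The library numbers in the descriptions lie close together for replicates 1 and 2 (1666 and 1667) and for replicates 3 and 4 (2469 and 2470). Whether the cyclases differed between these library pairs was tested with edgeR's quasi-likelihood test on all genes, without any treatment involved. None of the 9 members passed an adjusted p of 0.05, where 1.27% of 13905 genes tested did. At an unadjusted p under 0.05 in edgeR there were 2 of 9, Adcy1 and Adcy3, beside 16.8% of all genes tested, a share near that of the members. By DESeq2, which called 10.1% of the genes it tested, 1 member was called, Adcy3. Its mean was 5.73 CPM in the first pair and 27.7 CPM in the second, with a log2 difference of 2.30 (SE 0.85, edgeR adjusted p = 0.187, DESeq2 adjusted p = 0.0347), and both libraries of the second pair lay above both of the first. Adcy1 had 337 and 182 CPM, a log2 difference of -0.90 (SE 0.38, edgeR adjusted p = 0.250). Adcy2 had 203 and 120 CPM (log2 -0.72, SE 0.38, edgeR adjusted p = 0.366), and Adcy6 7.96 and 22.6 CPM (log2 1.57, SE 0.86, edgeR adjusted p = 0.394).

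Library pairs did not overlap in CPM for 5 of the 9 members. Adcy3, Adcy5 and Adcy6 were higher in the second pair, as were 22.7% of the 10632 genes that reached 1 CPM in all 4 libraries, and Adcy1 and Adcy2 were lower, as were 26.5%. Together these are 49.2% of the genes, so 5 of 9 is near the background. With Rn45s left out of the library totals, the pairs overlapped for Adcy1. The log2 differences of Adcy8 and Adcy9 were 0.10 (SE 0.61) and -0.07 (SE 0.52), and those of Adcy7 and Adcy4 -0.75 (SE 1.03) and -1.10 (SE 1.54). The median over the 9 members was -0.07, beside -0.03 over all genes tested. The granule cell markers Neurod1 and Cbln3 fell in the second pair (log2 -3.75 and -2.58, edgeR adjusted p = 0.0127 and 0.0238), beside Adcy1 means of 337 and 182 CPM in the first and second pair. They are the 2 genes of their list of 8 that passed. Purkinje cell markers summed to 1582, 2628, 778 and 750 CPM over 8 genes in replicates 1 to 4. They also held 2 genes that fell, Car8 and Itpr1 (log2 -2.85 and -1.75, edgeR adjusted p = 0.0127 and 0.0332). Of the 8, 6 had a lower mean CPM in the second pair, while Pcp2 and Calb1 were higher (log2 1.85 and 0.57, edgeR adjusted p = 0.538 and 0.486). Neuronal markers summed to 26318, 23575, 11965 and 13377 CPM over 10 genes in replicates 1 to 4. Snap25 made up most of that sum, at 18576.5, 15908.3, 8130.8 and 6935.5 CPM. Of the 10 neuronal markers, 8 had a lower mean CPM in the second pair, while Tubb3 and Map2 were higher. Those that passed were Nefm, which fell, and Tubb3, which rose (log2 -2.56 and 1.97, edgeR adjusted p = 0.0238 and 0.0307). All of these markers were named after their values were seen, and their part in the members' values was not tested.

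**Figure D5:**
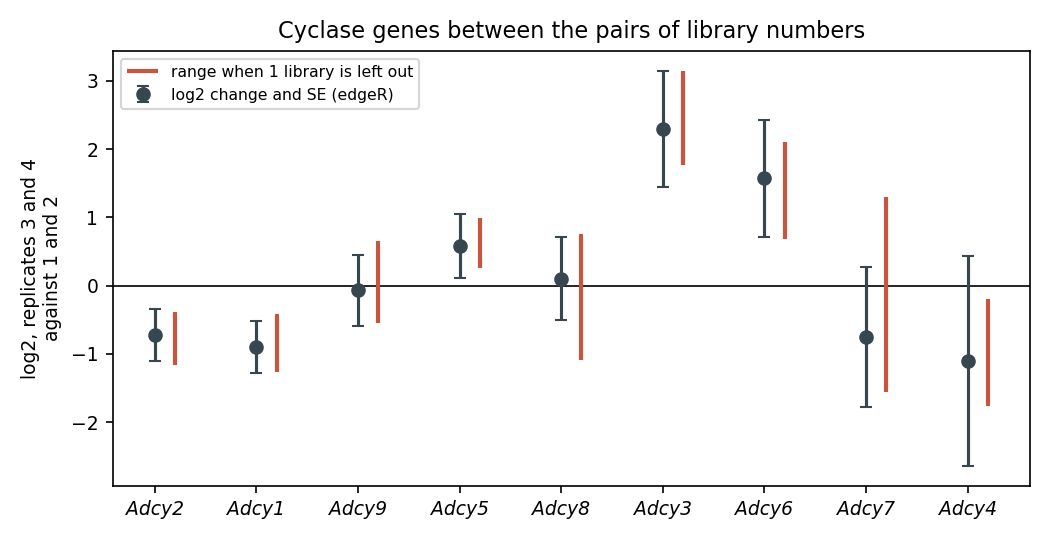
Log2 difference of each member between replicates 3 and 4 and replicates 1 and 2 (points), with an SE worked out from the edgeR F statistic. Red lines give the range of the value when 1 of the 4 libraries is left out. No point passed the adjusted threshold in edgeR, and the lines of Adcy7, Adcy8 and Adcy9 cross 0.

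The other genes of cyclic AMP signalling were widely detected. Of 78 genes in 8 lists, 67 reached 1 CPM in all 4 libraries, beside 33.5% of all shared gene rows. The 3 channel genes Cnga1, Cnga2 and Cngb3 had 0 counts throughout. The limit that a count of 0 allows is 0.142 to 0.236 CPM by library. All 8 genes on the list of G protein alpha subunits and their chaperone were detected throughout, led per kb by Gnas, the stimulatory subunit, at 280 ± 25.8 CPM per kb (3465, 3130, 3160 and 2761 CPM in replicates 1 to 4). That row can also hold reads of other transcripts of the Gnas locus. All 11 calcium regulators were detected throughout, led by the calmodulin gene Calm2 at 1390 ± 502 CPM per kb. All 9 genes of the protein kinase A list were too, with the regulatory subunit gene Prkar1a highest at 204 ± 85.1 CPM per kb. The 9 genes of A-kinase anchors, which tie the kinase to cyclases and channels, were detected throughout as well, with Akap11 highest at 52.1 ± 5.48 CPM per kb.

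Of 16 phosphodiesterase genes, whose enzymes break down cyclic AMP, 14 were detected throughout, and Pde4b was highest at 37.1 ± 18.6 CPM per kb. All 7 transcription factor and coactivator genes were, with Crebbp at 20.7 ± 3.16 CPM per kb, level with Atf1 at 20.5 ± 4.12. Of 15 other effectors, 7 were, beside 33.5% of all shared gene rows, with the Epac gene Rapgef4 highest at 27.3 ± 11.1 CPM per kb. The soluble cyclase gene Adcy10, which is no membrane cyclase and was named after its values were seen, had 0, 6, 0 and 0 counts, while the exporter gene Abcc5 on the same list was at 4.75 ± 2.19 CPM per kb. Of the 78 genes 70 could be tested between the library pairs, and 2 passed in edgeR, beside 1.27% of all genes. Camk4, a calmodulin-dependent kinase gene, was at 394, 638, 114 and 126 CPM and fell in the second pair (log2 -2.10, SE 0.36, edgeR adjusted p = 0.0229). Crtc1, a coactivator of CREB, was at 28.6, 47.2, 134 and 188 CPM and rose (log2 2.08, SE 0.43, edgeR adjusted p = 0.0370), but did not pass without replicate 4, in a fit with 1 library in the second pair (log2 1.94, edgeR adjusted p = 0.0502).

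The pattern of Adcy2 over the 4 libraries, as log2(CPM + 0.5) centred on its mean, was compared with 8847 genes of at least 10 CPM on average. The closest were Anks1b, Sfr1 and Ndn, with root mean square differences of 0.026, 0.027 and 0.048. Anks1b encodes a postsynaptic scaffold protein and Ndn the imprinted gene product necdin. With 4 libraries such likeness is common, and 824 genes lay within 0.3 of Adcy2 and 456 within 0.3 of Adcy1. Between members, the closest patterns were those of Adcy1 and Adcy9 (0.46) and of Adcy5 and Adcy6 (0.52), and the most distant those of Adcy1 and Adcy3 (1.79), among the 8 members of at least 10 CPM.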

How the data were processed

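RNA bound to tagged ribosomes was measured by sequencing in 4 libraries of 1 group. The deposited values are raw read counts per gene symbol; per the submitters' processing notes, the authors' tools were STAR 2.0.0e and HTSeq, and the build was mm10. Which annotation and which strand setting were used is not given in the sources used here. Rows of the HTSeq summary (5 per table) and the row named unknown, at 0 counts, were left out. As a share of all counts of a library, these rows included, ambiguous reads were 1.25% to 2.07%. Reads with no feature were 24.0% to 30.1%, and reads not aligned uniquely 28.6% to 37.2%. CPM used all remaining gene rows, with 12731825 to 21140265 counts per library, and exon, transcript and coding lengths came from GENCODE M21 (GRCm38). The smallest chi-square between 2 libraries was 153 per degree of freedom over 10632 genes, so none was a copy of another. The description of the library titled replicate 4 carries the replicate label of replicate 3, and the title was followed.

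Library pairs were compared with edgeR 4.0.16 (quasi-likelihood test after TMM scaling, genes kept by filterByExpr, Benjamini-Hochberg adjusted p under 0.05) and DESeq2 1.42.0, fitted on all shared gene rows, and ratios between members with an exact sign-flip test. The SE of an edgeR log2 difference was worked out as its absolute value divided by the square root of the F statistic. The scripts were tested on simulated data. Named were all 9 members, the highest gene per kb and every called gene of each pathway list, and the 3 genes most like the highest member in pattern. The members and lists were chosen with earlier results of these data known. The limit given for genes without counts covers counting error only, while SDs and SEs also hold the spread between libraries.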

Additional observations from a re-analysis of the deposited data

How the results depend on the processing

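With 4 libraries and 22 to 102 counts of Adcy4 per library, small differences were not detectable. With Rn45s left out of the totals or TMM library sizes, the mean CPM of each member moved by less than its SD. Separated pairs numbered 14 to 18 under the 9 alternatives, beside 16. The log2 ratio of Adcy2 to Adcy1 turned to -0.62 without division by length and to -0.59 by coding length, where Adcy1 has far more non-coding exon. Adcy9 to Adcy5 turned to -0.14 and -0.23 under these settings and ranged from -0.08 (without replicate 2) to 0.57 with 1 library left out, Adcy3 to Adcy6 to -0.07, -0.005 and from -0.23 (without replicate 4) to 0.27, and Adcy6 to Adcy7 from -0.39 (without replicate 3) to 0.71. The mean part of the calcium-stimulated members went from 31.7% to 50.6% by coding length, and that of the beta-gamma-stimulated ones from 42.8% to 28.8%. Genes called between the library pairs numbered 176, against 1403 by DESeq2, 875 with no filter on low counts, 438 at a mean of at least 10 CPM, and 389 to 699 with 1 library left out. Those last fits set 1 library against 2 and assume that the lone library varies like the others. Members called were 0 in each of these except DESeq2 (1, Adcy3, log2 2.29). Other pathway genes called were 2, against 14, 11 and 6 in these 3 settings and 4 to 10 with 1 library left out, where 10.1%, 4.77%, 4.94% and 2.59% to 4.60% of all genes were called. With 1 library left out, the log2 difference of Adcy7 ran from -1.56 to 1.30 (turned without replicate 1), that of Adcy8 from -1.09 to 0.75 (turned without replicate 3, and to -0.32 without replicate 1), and that of Adcy9 from -0.55 to 0.65 (turned without replicate 2, and to 0.18 without replicate 3). At 10 CPM that of Adcy9 was 0.01. The cause was not tested. For the overlap of library pairs, the other scalings were chosen after seeing the data and gave 4 members with Rn45s left out and 5 by TMM, beside 5, where 48.8%, 49.3% and 49.2% of all genes did not overlap.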
